A study of Sus scrofa with 31 samples.

Results

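The genes UPP1, CYP7A1, BTC, ADAM8, MAP4K1 and UBE4A were followed through RNA-seq of pig microglia, alveolar macrophages and hippocampal tissue, as candidate negative markers of microglia. These 6 genes, of 31907 in the count table, were chosen by their measured levels, high in alveolar macrophages and near 0 in microglia, so the contrast between those cell types is given as a description with no test. Total RNA was sequenced from 31 samples of 15 male piglets, by the tag numbers in the labels, aged 24 to 26 days, offspring of Large White x Landrace sows and Danish Duroc boars, with 1 piglet per litter. All were sedated with ketamine, midazolam and medetomidine and kept under isoflurane until death, and were raised in standard housing or in pens, which the sample labels do not tell apart. Microglia were sorted as CD11b high, CD45 low or negative cells from the cerebellum, the frontal cortex and the hippocampus (n = 8 samples each). Alveolar macrophages, from post-mortem lung lavage, were sorted as F4/80+ cells with low or no CD163 (n = 3), and pieces of whole hippocampus gave the tissue samples (n = 4). Pigs are named by tag number: 9 had more than 1 sample, 4 had hippocampal microglia and hippocampal tissue, and 2 had alveolar macrophages and microglia.

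Microglia and alveolar macrophages are both macrophages, but microglia are seeded into the brain early in development and live among neurons and glia, whereas alveolar macrophages clear surfactant, particles and microbes from the airspaces. A gene that other macrophages use and microglia do not is of use as a negative marker, since counts on it in a sorted microglia sample can be looked at beside the markers of other cells. Beside microglia, only alveolar macrophages were sequenced here. Levels of the 6 genes in other macrophages, such as those of the brain's borders, were not measured. The 6 genes act in unrelated processes. UPP1 encodes uridine phosphorylase, which splits uridine into uracil and ribose 1-phosphate in pyrimidine salvage. CYP7A1 encodes the rate-limiting enzyme of the classic pathway of bile acid synthesis from cholesterol, and is best known from liver. BTC encodes betacellulin, a membrane-bound ligand of the epidermal growth factor receptor family that is released by proteases. ADAM8 is a membrane metalloprotease of leukocytes that sheds cell surface proteins. MAP4K1, also called HPK1, is a kinase of blood-forming cells that restrains signalling from antigen receptors and feeds into the JNK cascade. UBE4A is a ubiquitin ligase of the U-box family, which extends ubiquitin chains and is broadly expressed across tissues.

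On Sscrofa11.1, with RefSeq gene models, UPP1 (ENSSSCG00000030388) lay at chr18:48418385-48440414 and CYP7A1 (ENSSSCG00000006238) at chr4:74343101-74372628. BTC (ENSSSCG00000008965) lay at chr8:70645721-70697538 and ADAM8 (ENSSSCG00000010772) at chr14:141221177-141233728. MAP4K1 (ENSSSCG00000002962) lay at chr6:47458540-47475090 and UBE4A (ENSSSCG00000015095) at chr9:45661090-45701911, so that the 6 genes were on 6 chromosomes. For the 5 genes other than UPP1, the 250 bases upstream of the annotated start differed in base composition. GC content was 62.8% for UBE4A, 61.6% for MAP4K1, 57.2% for BTC, 48.0% for ADAM8 and 36.0% for CYP7A1. The stretch held 24 CpG dinucleotides for UBE4A, against 14 for BTC, 7 for ADAM8, 4 for MAP4K1 and 1 for CYP7A1. The stretches of CYP7A1 and UBE4A are shown as the ends of the range of these 5, and those of BTC and UBE4A also hold the core motif of the myeloid factor PU.1 (capitals in BTC and UBE4A, GAGGAA read on the opposite strand). In CYP7A1 the capitals mark an AP-1 motif and, closer to the start, a TATA box motif on the opposite strand. This CYP7A1 stretch lies inside the annotated span of another gene, SDCBP (chr4:74295941-74357720, minus strand). Whether any of the stretches acts as a promoter was not tested.
CYP7A1 (chr4:74342851-74343100, plus strand): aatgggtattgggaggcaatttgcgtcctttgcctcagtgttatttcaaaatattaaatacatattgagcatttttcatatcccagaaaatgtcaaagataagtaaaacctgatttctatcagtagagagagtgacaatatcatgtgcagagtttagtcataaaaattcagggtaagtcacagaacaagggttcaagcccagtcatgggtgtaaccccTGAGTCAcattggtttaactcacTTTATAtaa
BTC (chr8:70697539-70697788, minus strand): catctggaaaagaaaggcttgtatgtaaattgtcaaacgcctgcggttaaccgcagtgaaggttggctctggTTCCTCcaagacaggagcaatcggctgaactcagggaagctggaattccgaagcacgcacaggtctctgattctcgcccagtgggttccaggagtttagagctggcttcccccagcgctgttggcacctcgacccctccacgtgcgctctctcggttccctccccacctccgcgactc
UBE4A (chr9:45660840-45661089, plus strand): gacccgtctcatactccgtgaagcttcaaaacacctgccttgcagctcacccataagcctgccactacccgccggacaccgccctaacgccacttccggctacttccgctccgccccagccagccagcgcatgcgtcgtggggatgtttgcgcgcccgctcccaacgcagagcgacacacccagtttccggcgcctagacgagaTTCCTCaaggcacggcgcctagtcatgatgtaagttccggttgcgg

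Motifs were searched on both strands from 250 bases before to 50 after the start of 19556 RefSeq genes. The PU.1 core GAGGAA had its first base at -178 in BTC and at -46 in UBE4A, 2 of the 5 genes other than UPP1, and was in 25.9% of all windows. The AP-1 motif TGANTCA, first base at -32, was found in the window of CYP7A1 alone among these 5, and in 6.07% of all windows. The TATA box motif TATAAA, first base at -9, was likewise in CYP7A1 alone, and in 10.9% of all windows. The C/EBP motif TTGCNNAA (9.46% of all windows) and the RUNX motif TGTGGT (16.1%) were in none of the 5, and no motif was common to them.

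The counts on genes, generated by StringTie, came to 18438494 in the shallowest sample and 43477403 in the deepest. A total of 3 counts, taken as the floor, corresponded to 0.0744 to 0.146 CPM in the microglia samples. CPM is the share of a library's counts on a gene, scaled with TMM factors. This floor covers counting error only. PCR duplicates are not told apart from separate molecules, and 3 counts need not be 3 separate reads. The 10 microglia markers, TMEM119 and P2RY12 among them, summed to 4321 to 8606 CPM in microglia samples, 327 to 618 in alveolar macrophages and 255 to 357 in tissue. The 10 markers of alveolar and border macrophages summed to 906 to 1359 CPM in alveolar macrophages and 13.5 to 75.2 in microglia. CD163 (296 to 573 CPM) and MRC1 (213 to 341 CPM) were high in alveolar macrophages, while MARCO, FABP4 and LYVE1 were listed at 0 in every sample of them. The alveolar macrophage samples also held lymphocyte transcripts. The 19 T and NK cell markers with a row summed to 1360 to 2513 CPM there, against 31.9 to 193 in microglia and 16 to 27.2 in tissue, and the 9 B cell markers to 528 to 776, 37.9 to 179 and 32.7 to 44.1 CPM. The 9 granulocyte and monocyte markers summed to 736 to 1530 CPM in alveolar macrophages, 54.9 to 97.8 in microglia and 313 to 402 in tissue. The lymphocyte, granulocyte and monocyte sums, like the 6 genes given next, were thus higher in alveolar macrophages than in microglia. In the alveolar macrophages of pigs 12821, 12829 and 12984, the T and NK cell sums were 1878, 2513 and 1360 CPM. The B cell sums were 776, 528 and 547 CPM, and the granulocyte and monocyte sums 736, 1074 and 1530 CPM. The 6 genes summed to 507, 640 and 686 CPM. The part of such cells in the levels of the 6 genes was not tested.

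In alveolar macrophages the 6 genes ranged from 45.3 to 178 CPM. Of the 144 values of 6 genes in 24 microglia samples, 117 were 0, 6 were of 1 to 3 counts and 21 were above 3 counts. Each of the 3 alveolar macrophage samples was above each of the 24 microglia samples for each gene. The distance between the lowest alveolar macrophage sample and the highest microglia sample was 81.0-fold for UPP1, 73.7-fold for CYP7A1, 53.7-fold for ADAM8, 24.9-fold for MAP4K1, 22.7-fold for BTC and 3.34-fold for UBE4A. The row of UBE4A, counted on an Ensembl gene model, was at 0 in all 4 tissue samples although the gene is broadly expressed. Whether this row measures UBE4A, or UBE4A alone, was not tested, which limits every UBE4A value given here and its place among the negative markers. By edgeR's thresholds (adjusted p under 0.01 and fold change over 3), 10.1% of 11633 tested genes were higher in alveolar macrophages, and the 6 genes were among them by the way they were chosen. They entered the tests only through their level in alveolar macrophages, since the filter asked for more than 10 CPM throughout 1 group or more. In such bulk samples, fewer cells that express a gene and less RNA per cell cannot be told apart.

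**Figure D1:**
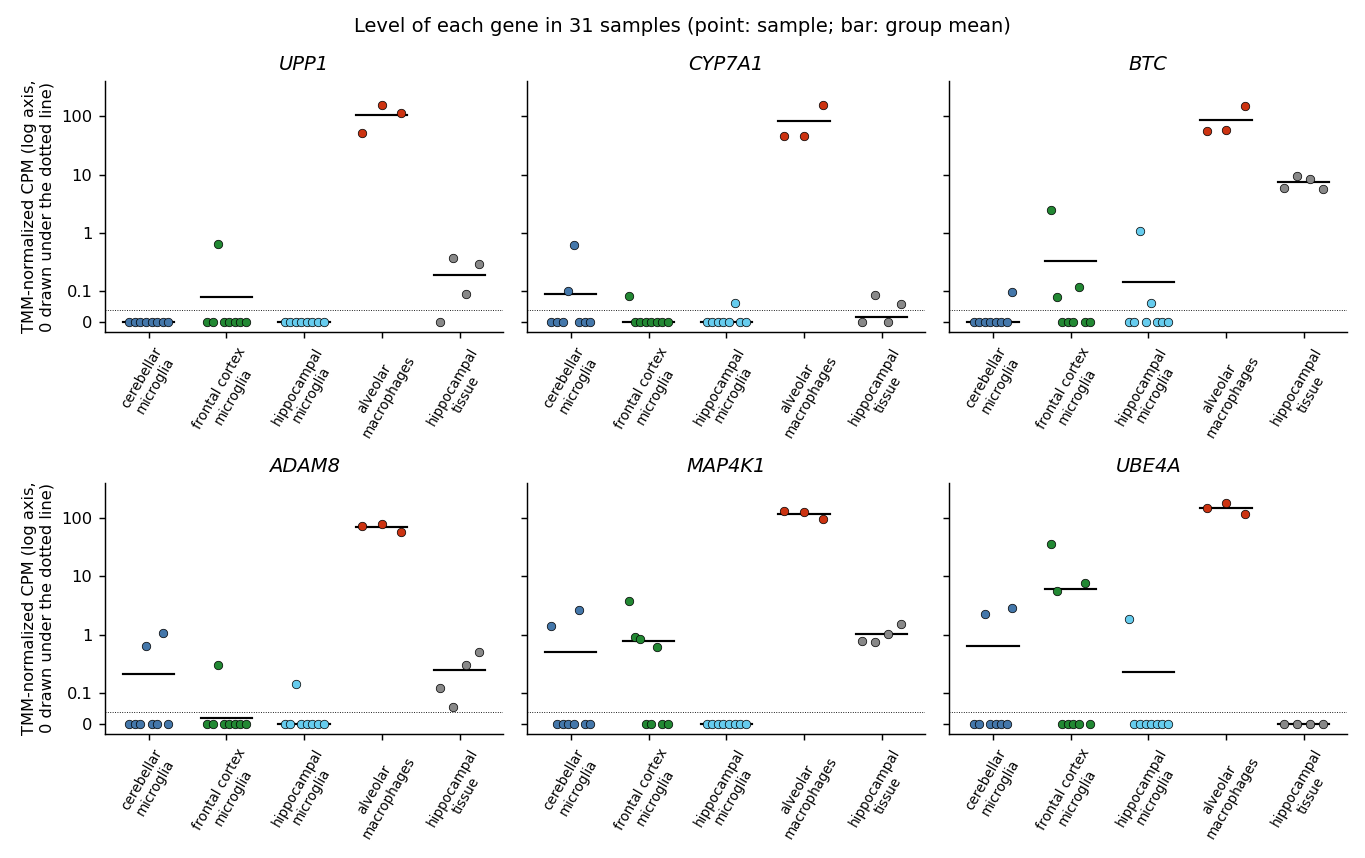
TMM-normalized CPM (log axis, with 0 drawn under the dotted line) of the 6 genes in each of the 31 samples, by group, with bars at the group means. The 3 alveolar macrophage samples lie between 45.3 and 178 CPM in every panel, most microglia samples lie at 0, and BTC is the gene whose 4 tissue samples reach 5.61 CPM or more.

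Levels of different genes are comparable only per length. Per kilobase of annotated exon, the order of the means in alveolar macrophages was UBE4A with 43.9 ± 9.0 CPM per kb (SD, n = 3), MAP4K1 with 43.8 ± 7.11, UPP1 with 27.2 ± 13.2, BTC with 18.6 ± 11.3, CYP7A1 with 15.1 ± 11.4 and ADAM8 with 15.0 ± 2.32. The samples of each gene overlapped with those of the next in this order, so that no neighbours differed beyond their spread. In microglia UBE4A and MAP4K1 again came first. UBE4A had 0.684 ± 2.15 CPM per kb (SD, n = 24), MAP4K1 0.161 ± 0.361, BTC 0.0348 ± 0.115, ADAM8 0.0193 ± 0.0545, UPP1 0.00684 ± 0.0335 and CYP7A1 0.00664 ± 0.0234, with every SD larger than its mean. In hippocampal tissue BTC led with 1.57 ± 0.404 CPM per kb (SD, n = 4), followed by MAP4K1 with 0.381 ± 0.136, and the other genes were at 0.0538 CPM per kb or less.

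UPP1, the uridine phosphorylase gene, was the most silent of the 6 in microglia by the number of samples. It had 0 counts in 23 of 24 microglia samples, and 26 counts (0.645 CPM) in the frontal cortex microglia of pig 12720. In alveolar macrophages it had 52.2 CPM in pig 12821, 155 in pig 12829 and 113 in pig 12984, a mean of 107 ± 51.9 CPM (SD, n = 3). Pig 12821 was thus the low sample, and the highest of the 3 was 2.98-fold above it. Without the sample of pig 12720 every microglia sample was at 0, and the lowest alveolar macrophage sample was at least 358-fold above the highest 3-count floor of a microglia library. In tissue UPP1 had 0, 0.378, 0.0922 and 0.300 CPM in pigs 12821, 12829, 12847 and 12872.

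CYP7A1, the bile acid synthesis gene, had 46.5, 45.3 and 153 CPM in the alveolar macrophages of pigs 12821, 12829 and 12984 (81.6 ± 61.9 CPM, SD, n = 3). Pig 12984 stood 3.38-fold above the lowest. In microglia 20 of 24 samples were at 0, and 1 had over 3 counts: the cerebellar microglia of pig 12821, with 16 counts (0.614 CPM). The next highest microglia sample, cerebellar microglia of pig 12758, had 3 counts (0.10 CPM). Tissue levels did not exceed 3 counts, with 0 CPM in pigs 12821 and 12847, 0.0872 in pig 12829 and 0.0600 in pig 12872. The annotated exons of CYP7A1 shared 369 bases with those of SDCBP, the syntenin gene on the opposite strand, which was expressed in all samples. SDCBP had 137, 155 and 286 CPM in the alveolar macrophages of pigs 12821, 12829 and 12984, so that pig 12984 was the high sample for both genes, and 104 to 232 CPM in microglia. The library kit kept strand, but whether counting used it is not given in the sources used here. In tissue, where SDCBP averaged 94.9 CPM, and in the 20 microglia samples at 0, CYP7A1 was listed at or near 0 beside an expressed SDCBP. The part of SDCBP reads in the CYP7A1 counts of alveolar macrophages was not tested.

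BTC, the betacellulin gene, showed the same high pig as CYP7A1, with 55.9, 57.4 and 149 CPM in the alveolar macrophages of pigs 12821, 12829 and 12984 (87.4 ± 53.3 CPM, SD, n = 3). It was at 0 in 18 of 24 microglia samples and above 3 counts in 3. These were frontal cortex microglia of pig 12599 with 58 counts (2.47 CPM), hippocampal microglia of pig 12781 with 30 counts (1.10 CPM) and frontal cortex microglia of pig 12847 with 4 counts (0.119 CPM). Without the first, the lowest alveolar macrophage sample was 51.0-fold above the highest microglia sample, in place of 22.7-fold. BTC was the gene with the highest tissue level, at 5.91, 9.45, 8.48 and 5.61 CPM in pigs 12821, 12829, 12847 and 12872. The tissue mean was 8.43% of the alveolar macrophage mean, and the tissue samples were all above the microglia samples.

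ADAM8, the leukocyte metalloprotease gene, was even across alveolar macrophages, at 72.3, 78.4 and 57.5 CPM in pigs 12821, 12829 and 12984 (69.4 ± 10.8 CPM, SD, n = 3). In microglia 20 of 24 samples were at 0. The others were cerebellar microglia of pig 12891 with 22 counts (1.07 CPM) and of pig 12758 with 19 (0.636 CPM), frontal cortex microglia of pig 12720 with 12 (0.298 CPM) and hippocampal microglia of pig 12781 with 4 (0.146 CPM). Without the first, the distance to the lowest alveolar macrophage sample rose from 53.7-fold to 90.3-fold. Tissue had 0.123, 0.0582, 0.307 and 0.510 CPM in pigs 12821, 12829, 12847 and 12872, within the range of the microglia samples.

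MAP4K1, the haematopoietic kinase gene, had 131, 125 and 95.3 CPM in the alveolar macrophages of pigs 12821, 12829 and 12984 (117 ± 19.0 CPM, SD, n = 3). All 8 hippocampal microglia samples were at 0. Frontal cortex microglia had counts in 4 of 8 samples, with 90 in pig 12599 (3.83 CPM), 34 in pig 12707 (0.918 CPM), 34 in pig 12720 (0.843 CPM) and 21 in pig 12847 (0.626 CPM). Cerebellar microglia had counts in 2 of 8, with 56 in pig 12847 (2.69 CPM) and 34 in pig 12583 (1.42 CPM). In tissue the gene had 0.766, 0.756, 1.01 and 1.53 CPM in pigs 12821, 12829, 12847 and 12872, above every hippocampal microglia sample and below the highest samples of the other regions.

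UBE4A, the U-box ligase gene, had the widest range of the 6 in microglia. It had 149, 178 and 118 CPM in the alveolar macrophages of pigs 12821, 12829 and 12984 (148 ± 30.4 CPM, SD, n = 3). It was at 0 in 18 of 24 microglia samples. In frontal cortex microglia, pig 12599 had 828 counts (35.2 CPM), pig 12891 had 163 (7.58 CPM) and pig 12707 had 211 (5.70 CPM). Cerebellar microglia of pigs 12902 and 12750 had 2.91 and 2.27 CPM, and hippocampal microglia of pig 12750 had 1.87 CPM. The sample of pig 12599 thus reached 23.7% of the alveolar macrophage mean. Without it, the distance between the lowest alveolar macrophage and the highest microglia sample was 15.5-fold instead of 3.34-fold, and the microglia mean 0.884 instead of 2.31 CPM. In the 4 tissue samples UBE4A was listed at 0, and no fold is given against that group.

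**Figure D2:**
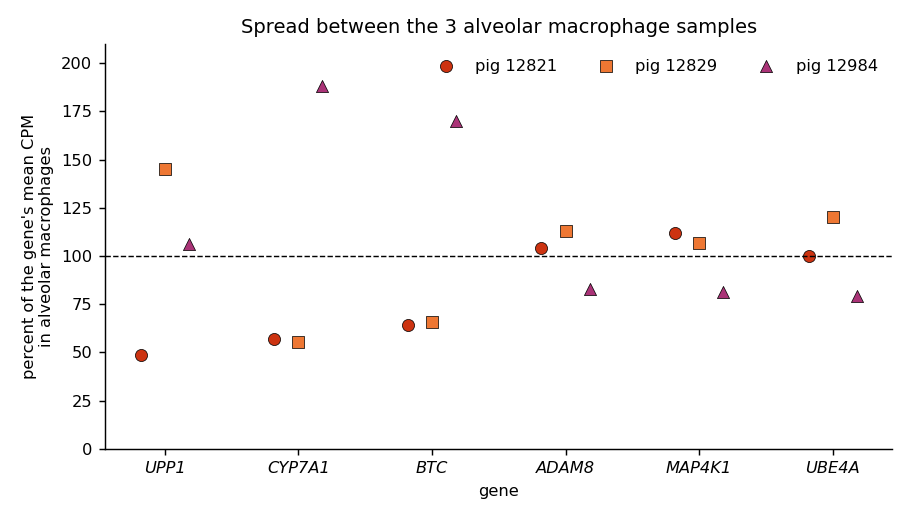
Level of each gene in the 3 alveolar macrophage samples as a percent of its mean over them (dashed line at 100), with 1 symbol per pig. CYP7A1 and BTC are at 188% and 170% in pig 12984, UPP1 is at 48.8% in pig 12821, and ADAM8, MAP4K1 and UBE4A lie between 79.2% and 120%.

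Of the genes next to the 6 on the chromosome, CD3D and ACTN4 were called higher in alveolar macrophages. The nearest annotated gene with a row to the left of UBE4A, 16936 bases away, was CD3D, which encodes a chain of the T cell receptor complex. CD3D had 177, 187 and 103 CPM in the alveolar macrophages of pigs 12821, 12829 and 12984, the same order as UBE4A, and 0 to 5.44 CPM in microglia (log2 fold change of microglia over alveolar macrophages -8.50 ± 0.65 SE, edgeR adjusted p = 4.15e-12). In the frontal cortex microglia of pigs 12599, 12891 and 12707, which held the most UBE4A, CD3D was at 5.44, 3.07 and 2.21 CPM. The hippocampal microglia of pig 12750 had UBE4A counts and no CD3D counts, and the frontal cortex microglia of pig 12902 had 2.90 CPM of CD3D and no UBE4A counts. On the other side, the chromatin regulator KMT2A averaged 412 CPM in microglia. A long non-coding RNA, LOC102167309, overlapped 133 exon bases of UBE4A on the opposite strand and has no row of its own here. Next to MAP4K1, the actin crosslinker ACTN4 had 93.2 CPM on average in microglia (log2 fold change -1.89 ± 0.23 SE, edgeR adjusted p = 2.91e-08), and RASGRP4 was not called. TUBGCP2, whose model ends 125 bases from the start of ADAM8, averaged 116 CPM in microglia and was not called (log2 fold change -0.08). NSMAF, UBXN2B, PARM1 and KNDC1 were not called either, and FAM221A, SUN3 and AREG were under the filter.

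The counts of the 6 genes in microglia fell on few samples. No gene of the 6 was counted in 8 of 24 microglia samples, 9 samples had counts on 1 gene, 4 on 2, 2 on 3 and 1 on 4. Frontal cortex microglia held 11 of the 21 values above 3 counts, in 5 of 8 samples. Cerebellar microglia held 7, each in another sample, and hippocampal microglia held 3, in 2 samples. The frontal cortex microglia of pig 12599 stood out, with the highest UBE4A, MAP4K1 and BTC of all microglia and a sum of 41.6 CPM over the 6 genes, against 507 to 686 CPM in alveolar macrophages. The cerebellar microglia of the same pig had no count on any of them.

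**Figure D3:**
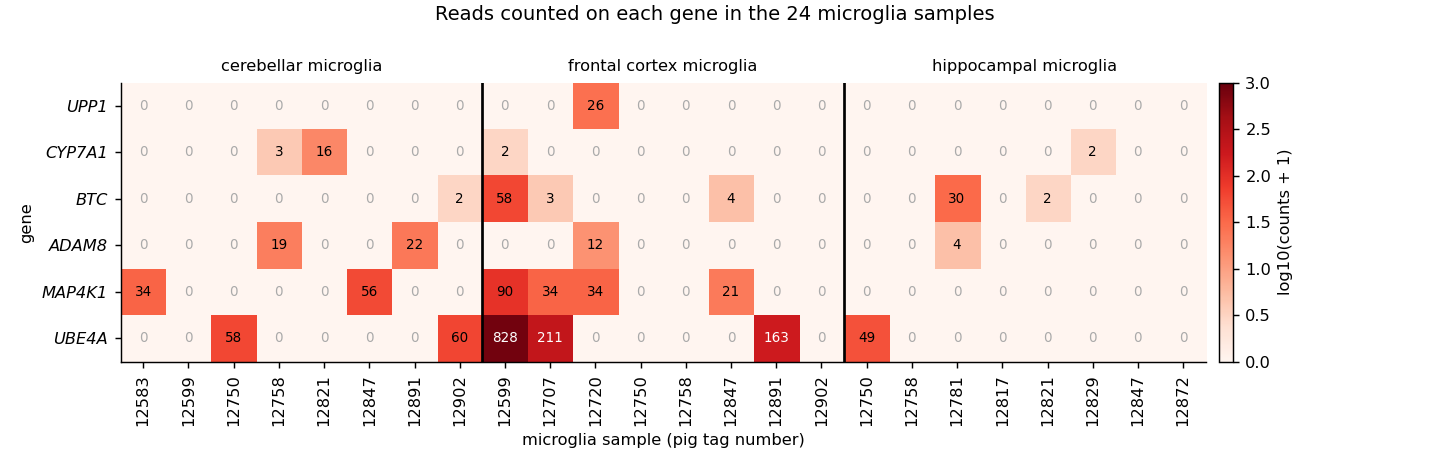
Counts on each of the 6 genes in the 24 microglia samples, 1 column per sample, ordered by region and pig tag number (colour: log10 of counts + 1). Of the 144 cells, 117 read 0, and the frontal cortex sample of pig 12599 holds the largest value, 828 on UBE4A.

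Markers of other cells were high in some of the samples with counts on the 6 genes, and also in some without. The frontal cortex microglia of pig 12599 had the highest sum of T and NK cell markers (193 CPM) and of other brain cell markers (1786 CPM) of the 24 microglia samples. The sample with the next highest UBE4A level, frontal cortex microglia of pig 12891, had 182 and 1224 CPM of these lists. In the third, that of pig 12707, they were 72.5 and 297 CPM, against medians of 60.1 and 285 CPM over all microglia. For the frontal cortex microglia of pig 12720, with counts on UPP1, ADAM8 and MAP4K1, they were 100 and 315 CPM. With no count on any of the 6 genes, the cerebellar microglia of pig 12599 had 104 and 769 CPM. The frontal cortex microglia of pig 12902, also with no such count, had 119 and 326 CPM. The T and NK cell sums include CD2, which was at 11.9 to 70.6 CPM in all microglia samples. CD2, CD3D, CD3E and LCK were at 38.3, 0.381, 0 and 3.47 CPM in the cerebellar microglia of pig 12599. They were at 44.3, 5.44, 5.10 and 0.723 CPM in its frontal cortex microglia, and at 21.7, 2.90, 0.741 and 0.580 CPM in those of pig 12902. The sum of the macrophage markers, with a median of 38.9 CPM over all microglia, was above it in the 2 samples with the most UBE4A. At 75.2 CPM in the frontal cortex microglia of pig 12891 it was the highest of all microglia. It was 56.4 CPM in those of pig 12599 and 40.3 in those of pig 12707. Samples with no count on the 6 genes reached similar sums, with 61.8 CPM in frontal cortex microglia of pig 12750 and 56.6 in hippocampal microglia of pig 12817. Of that list, the scavenger receptor gene CD163 was at 22.1 and 19.7 CPM in the frontal cortex microglia of pigs 12891 and 12599. In the other microglia it was at 0.146 to 10.8 CPM. MRC1 was at 8.28 CPM in the sample of pig 12891 and 0.893 in that of pig 12599. The F4/80 gene ADGRE1, the sort antigen of the alveolar macrophages with 63.0 to 142 CPM in them, was at 0 in every microglia sample. CD28 of the T and NK cell list and CD79B of the B cell list were also at 0 in every microglia sample, while the other 18 and 8 markers with a row were not. The part of these cells in the counts on the 6 genes was not tested.

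For the 2 pigs with alveolar macrophages and microglia, the levels within the animal are given as a description. The genes were chosen on levels that include these samples, so the direction was fixed in advance. In pig 12821, UPP1, ADAM8, MAP4K1 and UBE4A had 52.2, 72.3, 131 and 149 CPM in alveolar macrophages and 0 counts in cerebellar and hippocampal microglia. CYP7A1 had 46.5 CPM in alveolar macrophages of this pig and 0.614 in its cerebellar microglia, the highest microglia value of that gene. BTC had 55.9 CPM in alveolar macrophages of pig 12821, 0 in its cerebellar microglia and 0.0625 CPM (2 counts) in its hippocampal microglia. In the alveolar macrophages of pig 12829, UPP1, CYP7A1 and BTC had 155, 45.3 and 57.4 CPM. ADAM8, MAP4K1 and UBE4A had 78.4, 125 and 178 CPM there. The hippocampal microglia of pig 12829 had 2 counts of CYP7A1 and none of the other 5 genes.

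Hippocampal microglia (n = 8) were set beside hippocampal tissue (n = 4) to ask whether microglia carried these genes below the level of the tissue around them. The genes were chosen for microglia values near 0 and entered the fit only through alveolar macrophages, so the values are a description and nothing is read from the calls. BTC and MAP4K1 were called lower in microglia, 2 of 6 genes, beside 22.1% of 11633 tested genes called in that direction and 11.7% in the other (edgeR, adjusted p under 0.01 and fold change over 4). BTC averaged 0.145 CPM in microglia, where pig 12781 held 30 of the 32 counts, and 7.36 CPM in tissue. All 4 tissue samples were above all 8 microglia samples. MAP4K1 was at 0 in all 8 microglia samples, and its tissue mean of 1.02 CPM was at least 9.58-fold above the mean 3-count floor of those libraries, 0.106 CPM.

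The other 4 genes were low in both groups. ADAM8 averaged 0.0183 CPM in microglia, on the counts of pig 12781 alone, and 0.249 in tissue, and the groups overlapped. UPP1 was at 0 in all 8 microglia samples and had a tissue mean of 0.193 CPM, at least 1.81-fold above the floor, with no counts in the tissue of pig 12821. CYP7A1 had no sample of either group above 3 counts. UBE4A was at 0 in tissue and in 7 of 8 microglia samples, with 49 counts in that of pig 12750.

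**Figure D4:**
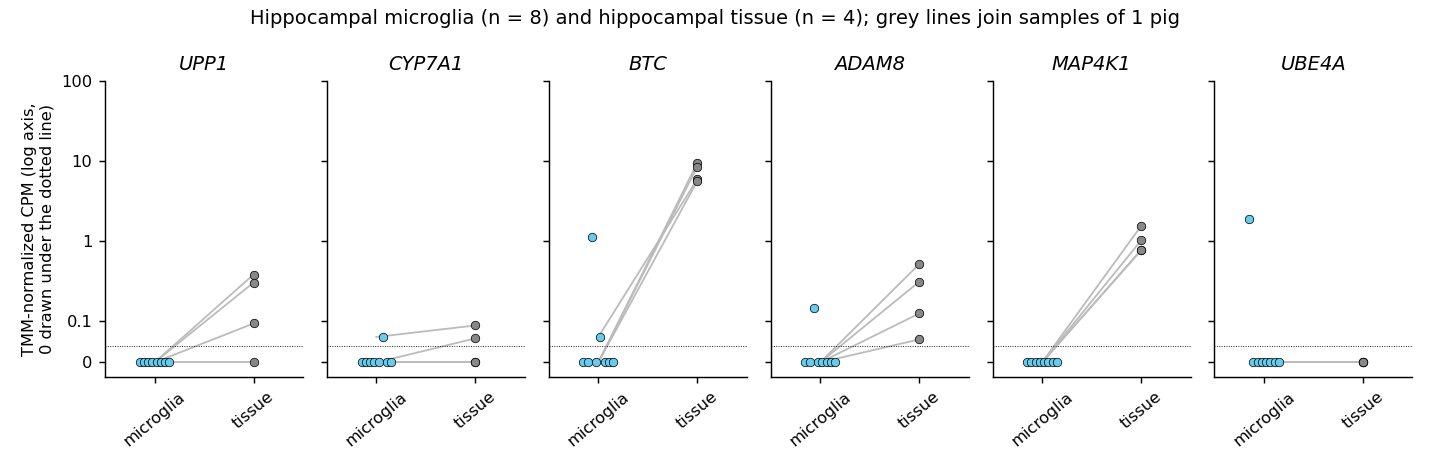
TMM-normalized CPM (log axis, with 0 drawn under the dotted line) of the 6 genes in 8 hippocampal microglia and 4 hippocampal tissue samples, with grey lines between samples of the same pig. The 4 tissue samples lie above all microglia samples for BTC and MAP4K1, and the 2 groups overlap for the other genes.

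Between the 3 microglia regions, the choice of genes near 0 in all of them left little to differ. In edgeR's F test none of the 6 genes passed an adjusted p of 0.01, beside 2.03% of 11633 tested genes, and since the test ran on the values that chose the genes, nothing is read from it. At an unadjusted p under 0.05, edgeR counted 6 of the 6 genes and 3008 of the 11633, whereas limma-voom and DESeq2 counted 0 of the 6. UBE4A averaged 6.06 ± 12.2 CPM in frontal cortex, 0.647 ± 1.21 in cerebellar and 0.234 ± 0.661 in hippocampal microglia (SD, n = 8 each), and MAP4K1 0.777 ± 1.30, 0.514 ± 1.01 and 0. For both genes the SD exceeded the mean in each region with counts. Each was at 0 in 18 of 24 microglia samples, though MAP4K1 had counts in 4 of 8 frontal cortex samples.

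Across the 31 samples, the genes most like each member were sought among the tested genes with a symbol, by the root mean square difference in log2 CPM after centring each gene on its own mean. The likeness is a description of the pattern alone. For UPP1 they were CD6, a receptor of T cells, ADGRE1 and the decoy receptor gene IL1R2 (differences of 0.82, 0.82 and 0.83). CYP7A1 was nearest to ADGRE1 (0.70), the phagosomal metal transporter gene SLC11A1 (0.72) and the adhesion receptor gene ADGRE3 (0.72). For BTC they were the phospholipid flippase gene ATP10A (0.90), SMPDL3A (1.14) and WDR63 (1.30), which were counted in tissue too, at 18.5, 7.16 and 10.2 CPM on average. ADAM8 was nearest to CD79B, a chain of the B cell receptor (1.06), IL1R2 (1.10) and THEMIS, a T cell gene (1.11). For MAP4K1 they were LOC100523789 (1.40), the T cell kinase gene ZAP70 (1.51) and the chemokine receptor gene CCR7 (1.52). UBE4A had no gene as near: UBASH3A (2.17), the interleukin receptor gene IL7R (2.18) and SCART1 (2.20) came first. CD6, CD79B, THEMIS and ZAP70 are in the lists of T, NK and B cell markers used above. CCR7, UBASH3A, IL7R and SCART1 are not in these short lists, which does not mean that lymphocytes lack them.

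Most family relatives of the 6 genes were not called higher in alveolar macrophages. UPP2, the other uridine phosphorylase gene, averaged 0.0548 CPM in alveolar macrophages, 0.0747 in microglia and 1.08 in tissue and was under the filter. CYP7B1, which hydroxylates oxysterols, was at 0 in alveolar macrophages and averaged 0.782 CPM in microglia and 8.28 in tissue, also under the filter. UBE4B, the closest relative of UBE4A, had 66.8 CPM in alveolar macrophages, 60.2 in microglia and 122 in tissue (log2 fold change of microglia over alveolar macrophages -0.15 ± 0.10 SE, edgeR adjusted p = 0.200). Of the MAP4K kinases, MAP4K3 was higher in microglia (84.5 against 4.49 CPM, log2 fold change 4.23 ± 0.30 SE, edgeR adjusted p = 4.87e-13). MAP4K2, MAP4K4 and MAP4K5 were not called, at log2 fold changes of -0.58, 1.5 and 0.34.

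**Figure D5:**
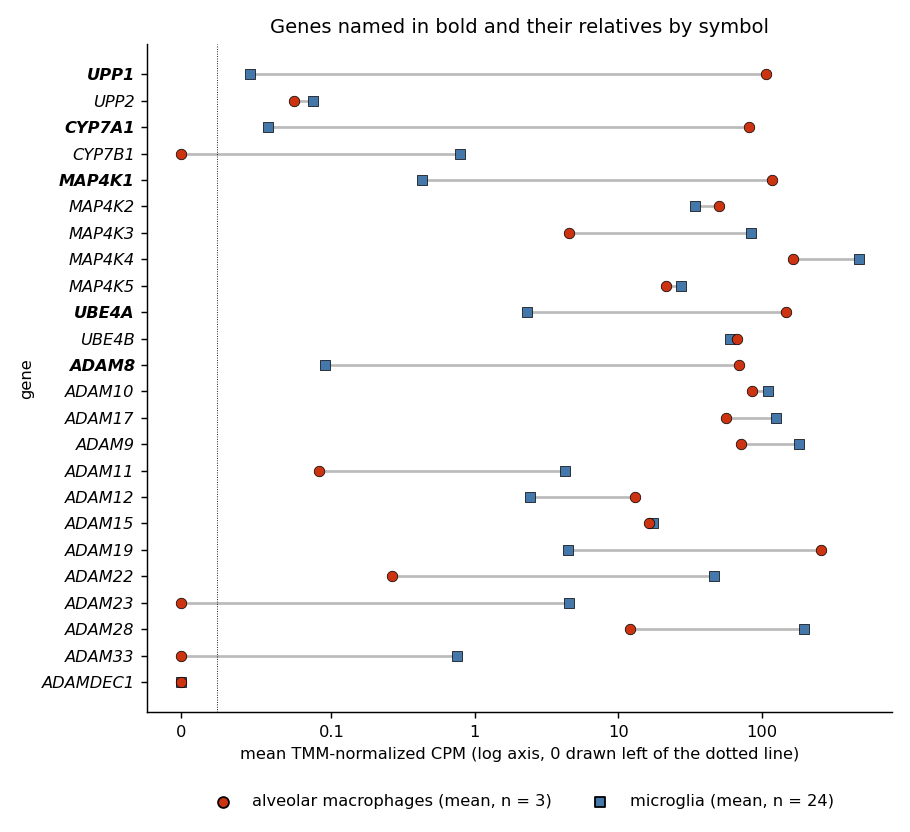
Mean TMM-normalized CPM (log axis, with 0 drawn left of the dotted line) in alveolar macrophages (circles, n = 3) and microglia (squares, n = 24) for 5 of the genes, in bold, and their relatives by symbol. The circle lies to the right of the square for the genes in bold and for MAP4K2, UBE4B, ADAM12 and ADAM19, with MAP4K2 and UBE4B not called.

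The wider pathways were described by lists of genes, without the 6 members, against backgrounds of 12.2% of tested genes called higher in microglia and 10.1% called higher in alveolar macrophages. Over all lists 13 of 86 tested genes were higher in microglia and 15 in alveolar macrophages, with a median log2 fold change of -0.21 against 0.06 over all tested genes. In uridine and pyrimidine salvage, 1 of 13 was higher in microglia and 2 in alveolar macrophages (median -0.06). SLC29A3, a nucleoside transporter of lysosomes, had 390 CPM in microglia and 8.27 in alveolar macrophages (log2 fold change 5.55 ± 0.33 SE, edgeR adjusted p = 1.61e-14). Thymidine kinase TK1 (41.7 against 10.7 CPM) and the nucleotidase NT5C (26.6 against 8.66 CPM) were higher in alveolar macrophages. Of 11 genes of bile acid synthesis and cholesterol handling, 5 were higher in microglia and 1 in alveolar macrophages, although the median was -0.52. The cholesterol exporter ABCA1 had 514 CPM in microglia and 19.2 in alveolar macrophages, and CYP46A1, the cholesterol hydroxylase of neurons, 6.53 and 0.0640 CPM beside 95.9 in tissue.

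Among 12 tested EGF family ligands, receptors and sheddases, 2 were higher in microglia and 2 in alveolar macrophages (median 0.41). The ligand gene EGF had 35.1 CPM in microglia, 0.0954 in alveolar macrophages and 4.15 in tissue (log2 fold change 8.43 ± 0.48 SE, edgeR adjusted p = 4.99e-15), the opposite of BTC. NRG3, a neuregulin of neurons, was at 0 in alveolar macrophages and ranged from 0 to 46.7 CPM in microglia, beside 60.1 CPM in tissue, and NRG1 was higher in alveolar macrophages (16 against 1.53 CPM). Of 17 tested genes of ADAM proteases, their inhibitors and partners, 2 were higher in microglia and 4 in alveolar macrophages (median 0.39). ADAM28 (197 against 12.1 CPM) and the neuronal ADAM22 (46.1 against 0.266 CPM, beside 159 in tissue) were the ones higher in microglia. ADAM19 (259 against 4.44 CPM), ADAM12 (13.0 against 2.41 CPM) and the protease inhibitor gene TIMP1 (57.6 against 0.280 CPM) were higher in alveolar macrophages. The sheddases ADAM10 and ADAM17 were not called, at 84.7 and 55.8 CPM in alveolar macrophages and 111 and 126 in microglia. ADAM9, ADAM11, ADAM15 and ADAM23 were not called either, and ADAM33 and ADAMDEC1 were under the filter.

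In the list of MAP4K kinases and antigen receptor signalling, 2 of 22 were higher in microglia and 6 in alveolar macrophages (median -0.35). The largest differences were those of the T cell kinases ZAP70 (197 against 0.486 CPM, log2 fold change -9.94 ± 0.68 SE, edgeR adjusted p = 5.30e-13) and LCK (122 against 0.459 CPM), and of the adaptor GRAP2 (29.8 against 0.102 CPM). ZAP70 and LCK are also in the list of T and NK cell markers, which were high in these alveolar macrophage samples. In the U-box ligases and their E2 enzymes, 1 of 13 was higher in microglia and 0 in alveolar macrophages (median -0.26). It was WDSUB1, with 13.5 CPM in microglia and 3.72 in alveolar macrophages (log2 fold change 1.85 ± 0.23 SE, edgeR adjusted p = 6.31e-08).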

How the data were processed

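The authors trimmed paired-end reads of stranded total RNA libraries with BBtools, aligned them to Sscrofa11.1 with Hisat2 and counted them on Ensembl genes with StringTie. They deposited counts from StringTie for 31907 genes, 1 column per sample. How shared or opposite-strand reads were assigned, and whether 1 count stands for 1 read, is not given in the sources used here. The members and all gene lists were chosen with earlier results of these data known. Symbols came from the supplementary tables (3689 genes) and a reference table (11778 genes), and positions and upstream sequences from the RefSeq annotation of Sscrofa11.1.

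The 11633 genes above 10 CPM throughout at least 1 group entered 1 quasi-likelihood model of 5 groups with no pig term (edgeR 4.0.16, R 4.3.3), with TMM factors of 0.823 to 1.16. The study's methods name limma-voom, an alternative here. Adjusted p-values are those of Benjamini and Hochberg over all tested genes, and the standard error was taken from the F statistic. Thresholds were an adjusted p of 0.01 and a fold change of 3 (alveolar macrophages) or 4 (tissue). Log2 CPM used a prior count of 2. The fits were tested on simulated data. Genes named beside the 6 are their chromosomal neighbours, the 3 nearest in pattern, up to 3 called genes of each list with the largest fold change, and relatives by symbol. Some genes and 1 upstream stretch under this rule are not reported here.

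Pigs, 1 per litter, pair the samples through the tag numbers in the labels, which give fewer pigs, and fewer with several samples, than the study's text states. After group means were removed, the mean correlation was 0.0791 within pigs (25 pairs) and -0.00499 between pigs (347 pairs). The within-pig correlation estimated by limma was 0.205, and the main model took samples of the same pig as independent. No sample was a copy of another (chi-square over its degrees of freedom 19.1 or more between replicates). Alternatives used limma 3.58.1, DESeq2 1.42.0 and exact permutation tests in scipy 1.17.1 (Python 3.11.15).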

Additional observations from a re-analysis of the deposited data

Results flagged for a closer look

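Dixon's criterion on log2 CPM was applied to the 20 sets of 1 gene in 1 group of 4 or 8 samples with any counts. It singled out 10 values, all in microglia. Of these, 7 were the 1 sample of a group with counts on the gene, which the criterion singles out at any level, so that the rate of about 1 in 20 groups expected by chance does not hold for such tied values and the number of values singled out carries no weight. In frontal cortex microglia of pig 12720 these were UPP1 at 0.645 CPM (26 counts) and ADAM8 at 0.298 CPM (12 counts), the other 7 samples of that region being at 0 for both. In frontal cortex microglia of pig 12599 they were BTC at 2.47 CPM (58 counts), which was 2.82% of the alveolar macrophage mean, and CYP7A1 at 0.0850 CPM (2 counts). In hippocampal microglia of pig 12781 they were BTC at 1.10 CPM (30 counts) and ADAM8 at 0.146 CPM (4 counts). CYP7A1 was at 0.614 CPM (16 counts) in cerebellar microglia of pig 12821 and at 0.0625 CPM (2 counts) in hippocampal microglia of pig 12829. BTC was at 0.0970 CPM (2 counts) in cerebellar microglia of pig 12902, and UBE4A at 1.87 CPM (49 counts) in hippocampal microglia of pig 12750. The values of 2 counts are under the 3-count floor. The T and NK cell markers summed to 193, 118, 100 and 48.7 CPM in the samples of pigs 12599, 12821, 12720 and 12902. In the hippocampal samples of pigs 12750, 12781 and 12829 they summed to 54.7, 57.9 and 62.2 CPM. Why these samples held the counts was not tested.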

How the results depend on the processing

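The tests of members against tissue and between regions ran on the values that chose them and support nothing. They had no call in the F test of regions under 41 settings, with BTC nearest (adjusted p = 0.0147 without 1 sample). Against tissue, 2 members were called in the main analysis and 2 to 3 with each sample left out, and 4 (BTC, MAP4K1, ADAM8 and UPP1) at an adjusted p under 0.05. When edgeR took the pig as a replicate block, MAP4K1 missed the threshold (adjusted p = 0.0503) and ADAM8 passed it (adjusted p = 0.00715), while BTC, MAP4K1 and ADAM8 passed with the block in limma-voom. ADAM8 was also called by edgeR without the hippocampal microglia of pig 12781 (adjusted p = 0.00681), and UPP1 without the frontal cortex microglia of pig 12720 (adjusted p = 0.00254) or the tissue of pig 12821 (adjusted p = 0.00951). DESeq2 called UBE4A (adjusted p = 2.37e-06) on the 49 counts of pig 12750. With only the compared groups in the fit, the 6 genes fell under the filter and had no test against tissue or between regions. Over all genes, with filterByExpr and with no filter on low counts, 2548 and 3035 in place of 1176 were called higher in alveolar macrophages than in microglia. The same filters gave 2120 and 2097 in place of 1363 higher in hippocampal microglia, and 4963 and 5771 in place of 2567 higher in tissue, with more genes tested. The 236 genes of the region test became 520 in DESeq2, 85 with the replicate block in edgeR, 385 with it in limma-voom, 141 with only the groups compared, 927 at an adjusted p under 0.05, and 154 to 335 with each sample left out, the lowest without the cerebellar microglia of pig 12750. The cause of these differences was not tested. Other counts stayed within 1.5 times. Depth limits the members in microglia, where most values lie at or under 3 counts, and 3 alveolar macrophage samples limit every statement on that group.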
